A study of Homo sapiens with 15 samples.

Results

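The replication-dependent histone genes were examined in MT-2 cells, a line of HTLV-1-transformed CD4+ T cells, by taking every transcript cluster (the unit by which the array measures a gene) whose single gene symbol is that of an H1 gene from H1-1 to H1-6 or of an H2AC, H2BC, H3C or H4C gene, with pseudogenes left out. This gave 55 genes with 1 cluster each, of the 18377 genes named by clusters with 1 symbol. They were 6 genes of class H1, 14 of H2A, 16 of H2B, 8 of H3 and 11 of H4. A further 12 clusters were annotated to several histone genes of the same class and 8 to histone and other genes. These were kept apart.

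All cells carried the HTLV-1 provirus of the line and were cultured for 48 hours. The 5 conditions were untreated cells (NT), low-dose, intermediate-dose and high-dose ascorbic acid (AA, vitamin C; 10, 50 and 100 µg/ml) and IFN-α, given as IFN-α2A at 1000 IU/ml. Each condition was measured on 3 Affymetrix Human Gene 1.0 ST arrays, 1 from each of 3 separate RNA experiments, which gives 15 arrays of a single cell line. By a tag in the titles, experiments 2 and 3 have 1 date in common and experiment 1 has its own, so how independent experiments 2 and 3 were is unknown. All values below are the authors' log2 values after RMA (background correction, quantile normalization and summarization of probes). Because clusters differ in their probes, levels of different genes are not compared.

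Replication-dependent histone genes supply the histones that package new DNA. Their transcripts are made in S phase and end in a stem-loop bound by SLBP, the stem-loop binding protein, in place of a poly(A) tail, and NPAT drives their transcription at the histone locus bodies. H2A, H2B, H3 and H4 proteins build the nucleosome core and H1 proteins bind the linker DNA between nucleosomes. The labelling kit used here primes along whole transcripts, so that transcripts without a poly(A) tail can be labelled. Many core histone genes of 1 class are alike in coding sequence, while the H1 genes encode distinct linker histones. The share of signal that a cluster takes from its paralogs was not tested. In RNA from a whole culture, fewer cells in S phase and less histone mRNA per cell cannot be told apart.

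The classes differ in the sequence of their promoters, which is shown before the values. The 250 bases before the transcription start (RefSeq, GRCh38.p14, 5′ to 3′) are given for 1 gene per class, the gene with the smallest p against untreated cells. H1-1 lies at chr6:26017788-26018037 (minus strand), H2AC8 at chr6:26216671-26216920 (plus strand), H2BC7 at chr6:26199266-26199515 (plus strand), H3C2 at chr6:26032100-26032349 (minus strand) and H4C5 at chr6:26204360-26204609 (plus strand). Capitals mark 4 motifs, each searched on both strands. The TATA box was searched as TATAAA. The CCAAT box was searched by the letters of its name. The octamer, the motif of OCT1 and its relatives, was searched as ATTTGCAT. The H1 box, known from linker histone promoters, was searched as AAACACA.
H1-1: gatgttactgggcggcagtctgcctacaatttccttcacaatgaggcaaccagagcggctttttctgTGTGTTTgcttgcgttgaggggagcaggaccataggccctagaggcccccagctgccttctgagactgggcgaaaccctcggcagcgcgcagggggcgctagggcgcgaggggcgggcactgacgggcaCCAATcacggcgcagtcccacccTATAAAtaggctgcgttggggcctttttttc
H2AC8: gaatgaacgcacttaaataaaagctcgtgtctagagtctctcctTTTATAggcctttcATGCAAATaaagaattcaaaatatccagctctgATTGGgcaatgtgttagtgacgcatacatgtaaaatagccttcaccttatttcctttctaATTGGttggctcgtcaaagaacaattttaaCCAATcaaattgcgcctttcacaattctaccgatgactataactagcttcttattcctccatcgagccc
H2BC7: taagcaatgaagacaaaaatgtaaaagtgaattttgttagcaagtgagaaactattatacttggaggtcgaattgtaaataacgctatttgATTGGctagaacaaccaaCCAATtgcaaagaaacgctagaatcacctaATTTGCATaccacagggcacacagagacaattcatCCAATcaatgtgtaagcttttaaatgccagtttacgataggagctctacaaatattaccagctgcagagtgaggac
H3C2: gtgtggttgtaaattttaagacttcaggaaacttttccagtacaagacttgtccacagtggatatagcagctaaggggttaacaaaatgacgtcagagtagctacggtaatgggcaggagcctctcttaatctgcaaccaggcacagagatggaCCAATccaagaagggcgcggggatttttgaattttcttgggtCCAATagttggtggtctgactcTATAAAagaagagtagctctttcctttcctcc
H4C5: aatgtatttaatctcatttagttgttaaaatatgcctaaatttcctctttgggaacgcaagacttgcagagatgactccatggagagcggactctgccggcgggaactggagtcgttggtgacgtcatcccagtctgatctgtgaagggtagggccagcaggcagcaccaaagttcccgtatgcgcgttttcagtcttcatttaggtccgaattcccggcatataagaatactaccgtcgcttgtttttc

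RefSeq promoter windows, which also take in 50 bases after the start, were at hand for 50 of the 55 genes. The octamer was present in 10 of 13 H2A and 13 of 16 H2B promoters and in none of the 6 H1, 6 H3 and 9 H4 promoters, against 2.19% of the 27305 genes of the same table. The H1 box was present in all 6 H1 promoters and in 1 other of the 50, that of H2AC20, against 6.94% of all genes. CCAAT occurred in every H1, H2A, H2B and H3 promoter and in 3 of 9 H4 promoters, against 39.7% of all genes. TATAAA occurred in 34 of the 50, or 68%, against 14% of all genes. Matches at any position of the window and on either strand were counted, so this is no count of TATA boxes near the start. The match marked above in H2AC8 begins 206 bases before the start, on the reverse strand. H4C5, shown above, holds none of the 4 motifs before its start. The promoters are not independent of each other, since 9 pairs of an H2A and an H2B gene on opposite strands have overlapping windows. A match describes the sequence and is no measurement of binding.

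Most histone genes had a signal above the lower quartile of all clusters. H1-6 and H2BC1, both known as testis variants, were below it in all 15 arrays, H2AC14 in 12, H4C7 in 9 and H2AC1 in 2. The other 50 genes were above it on every array. The cell type markers CD4 and IL2RA were above the upper quartile of every array. CD3E lay near the lower quartile, at 4.98 to 5.62, and the B cell gene MS4A1 at 4.37 to 4.95. The markers CD2, CD5, CCR4, FOXP3, CD8A, CD8B, CD14 and CSF1R were also measured, and their levels are not given here. Of the arrays, high-dose AA replicate 3 stood apart, with a mean correlation of 0.976 with the other arrays where the others had 0.991 to 0.995. The interferon-induced genes MX1 and OAS1 were higher under IFN-α by 3.44 and 3.54 (limma adjusted p = 1.16e-09 and 5.63e-12).

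Under IFN-α, most histone genes had lower values than in untreated cells by small amounts, and 1 gene fell past the threshold used by the study, an unadjusted limma p under 0.001. Of 55 genes, 46 (83.6%) were lower and 9 higher, where 54.3% of all 28926 clusters were lower. The median difference was -0.102, while the median over all clusters was -0.008. All 6 H1 genes were lower, 13 of 14 H2A, 11 of 16 H2B, 6 of 8 H3 and 10 of 11 H4 genes. The class medians were -0.063 for H1, -0.102 for H2A, -0.127 for H2B, -0.063 for H3 and -0.178 for H4. The gene that fell was H3C2 (older name HIST1H3B), which encodes a core histone H3 and which the study itself names for IFN-α on these arrays, so it is not independent evidence. Called clusters made up 0.28% of all clusters in this comparison.

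H3C2 measured 11.91, 11.82 and 11.82 in untreated cells of experiments 1, 2 and 3 and 11.61, 11.59 and 11.44 under IFN-α. All 3 IFN-α values lay below the untreated values and below the values of every AA array. The difference was -0.31 ± 0.07 (SE; adjusted p = 0.255). The call was lost without untreated replicate 1, 2 or 3 (differences -0.28, -0.32 and -0.32), without IFN-α replicate 2 or 3 (-0.33 and -0.25) and without any 1 experiment, and it was kept without IFN-α replicate 1 (-0.34).

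At an unadjusted p under 0.05, 5 histone genes were lower under IFN-α and none higher, where 0.522% of all clusters were lower and 0.868% higher at that threshold. None of the other 4 passed the study's threshold. H4C5, a core H4 gene, had 10.01, 9.79 and 9.83 in untreated cells and 9.78, 9.57 and 9.57 under IFN-α, a difference of -0.24 ± 0.08 (SE; adjusted p = 1). H1-5, a linker histone gene, had 10.96, 10.85 and 10.95 against 10.67, 10.79 and 10.74, a difference of -0.18 (adjusted p = 1). The arrays did not overlap for either gene. H2AC8, an H2A gene, went from 6.04, 6.08 and 6.01 to 5.93, 5.86 and 5.81 (adjusted p = 1), again without overlap. H2BC13 had 7.12, 7.08 and 7.03 against 6.82, 7.07 and 6.62 (adjusted p = 1), with overlap at the IFN-α value of experiment 2.

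**Figure D1:**
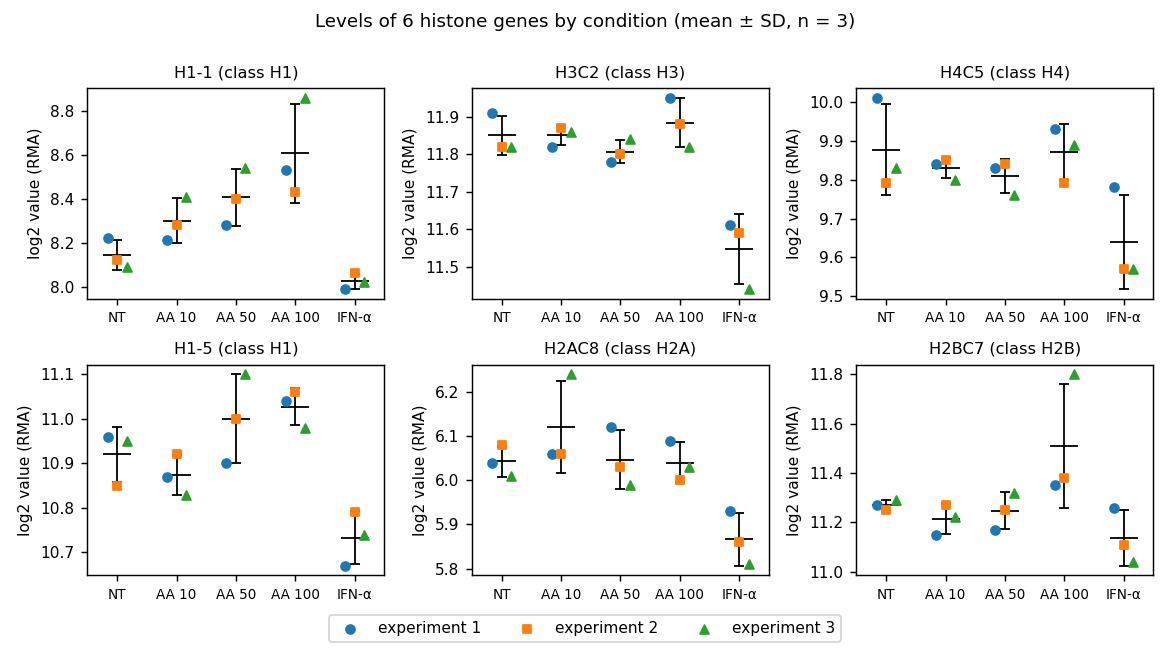
Log2 values (RMA) of 6 histone genes on each of the 15 arrays by condition; symbols are experiments, horizontal lines are means and bars SDs over 3 arrays. H3C2 under IFN-α sits at 11.44 to 11.61, under all other arrays, and H1-1 reaches 8.43 to 8.86 at 100 µg/ml AA.

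Across the 3 experiments, 23 of the 55 genes were lower under IFN-α in every experiment, where 11.7% of all clusters were, and 1, H2BC12, was higher in every experiment, where 9.47% were. In 8 genes all 3 IFN-α arrays lay below all 3 untreated arrays, where this held for 2.93% of all clusters. These were H1-1, H1-5, H2AC4, H2AC8, H2BC11, H3C2, H4C5 and H4C9. The size of the difference was uneven between experiments. The median over the 55 genes was -0.06 in experiment 1, -0.03 in experiment 2 and -0.21 in experiment 3. In experiment 3, H4C3 was 0.77 lower and H2BC4 0.65 lower, while in experiment 2 they were 0.03 and 0.15 lower. IFN-α replicate 3 held the lowest of the 15 values for 20 of the 55 genes, a count not made over all clusters. Its mean over the histone genes was 8.07 against 8.27 and 8.30 for the other IFN-α arrays. Without that array 37 genes were lower, 3 of them at an unadjusted p under 0.05, and 1 was higher at an unadjusted p under 0.05, with a median of -0.046. Without the whole of experiment 3, 35 were lower, 1 of them at an unadjusted p under 0.05, and the median was -0.044. These counts were not made over all clusters. The 24 histone genes among the brightest 25% of clusters had a median of -0.34 in experiment 3, and all clusters that bright had -0.04. The part of brightness in the histone values was not tested.

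**Figure D2:**
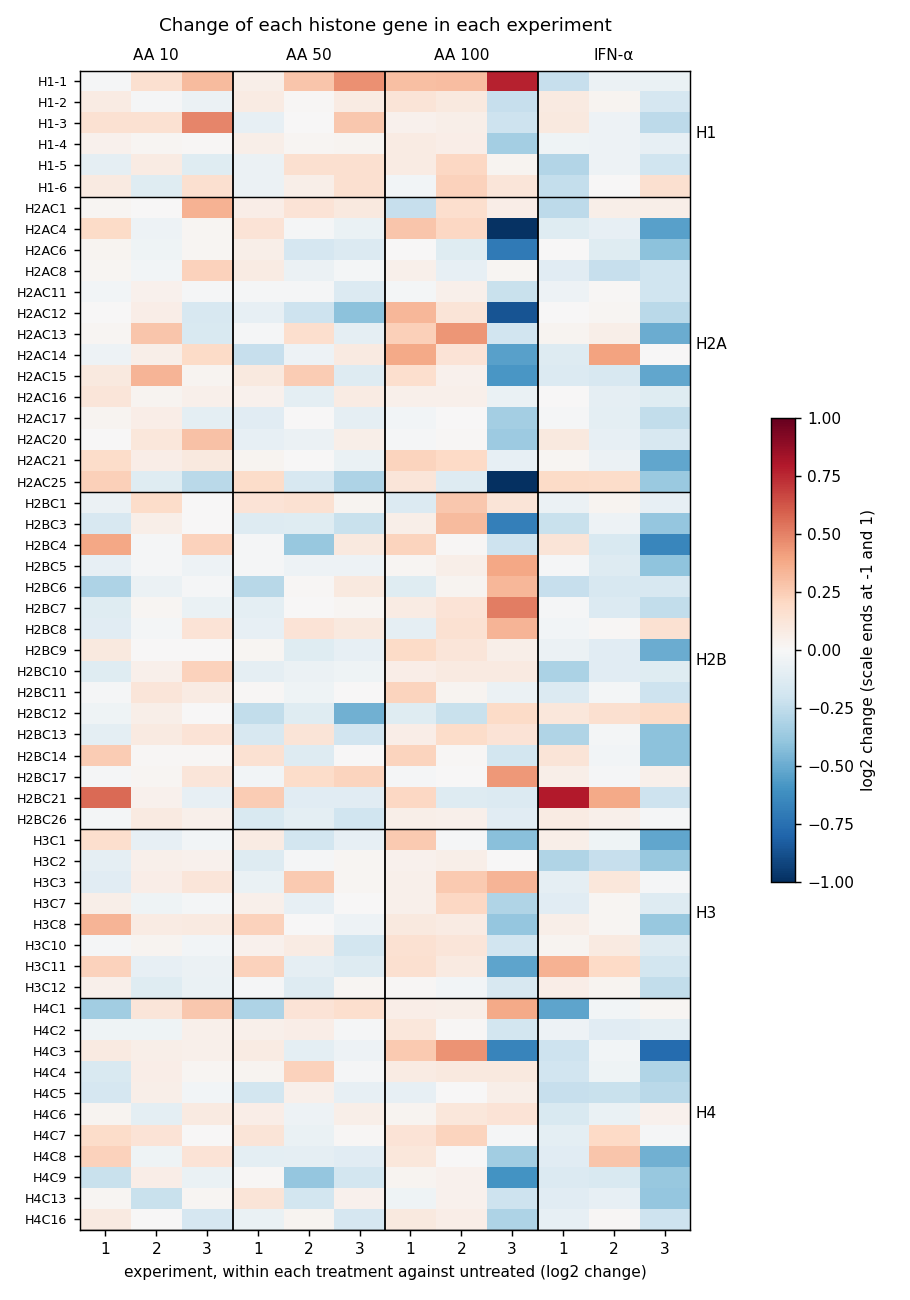
Log2 change of each of the 55 histone genes (rows, grouped by class) against untreated cells of the same experiment, for 10, 50 and 100 µg/ml AA and IFN-α (columns, experiments 1 to 3); red is higher and blue lower, with the colour scale ending at -1 and 1. The strongest blue is in high-dose AA experiment 3, in class H2A, where H2AC25 changed by -1.35 and runs past the end of the scale.

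With high-dose AA 1 linker histone gene, H1-1, rose, and the other 54 genes did not pass the threshold. H1-1 (older name HIST1H1A) encodes a linker histone and is named by the study for high-dose AA on these arrays, so it too is not independent evidence. Its value was 8.22, 8.12 and 8.09 in untreated cells and 8.53, 8.43 and 8.86 with high-dose AA. The groups did not overlap, and the highest value came from experiment 3. The difference was 0.46 ± 0.11 (SE; adjusted p = 0.346), where 0.259% of all clusters were called. The call was lost without untreated replicate 1, 2 or 3 (differences 0.50, 0.45 and 0.43), without high-dose AA replicate 1 or 3 (0.50 and 0.33) and without any 1 experiment. It was kept without high-dose AA replicate 2 (0.55).

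None of the other H1 genes passed the threshold, and whether their differences were smaller than that of H1-1 was not tested. The high-dose difference was 0.00 for H1-2, -0.04 for H1-3, -0.06 for H1-4, 0.11 for H1-5 and 0.11 for H1-6, with adjusted p from 0.571 to 0.996. H1-5 had 11.04, 11.06 and 10.98 against 10.96, 10.85 and 10.95 in untreated cells, a difference without overlap that did not pass the test. H1-5 was higher in every experiment, by 0.08, 0.21 and 0.03. H1-4 had 13.56, 13.66 and 13.24 with high-dose AA and 13.47, 13.59 and 13.57 without it.

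At an unadjusted p under 0.05, 2 further genes were higher with high-dose AA and none was lower, where 7.34% of all clusters were higher and 3.62% lower. H2BC7, an H2B gene, had 11.35, 11.38 and 11.80 against 11.27, 11.25 and 11.29 (difference 0.24, adjusted p = 0.448). H3C3, an H3 gene, had 7.47, 7.33 and 7.59 against 7.42, 7.07 and 7.24 (difference 0.22, adjusted p = 0.454). The 3 of 55 genes higher at this level, or 5.45%, are no larger a share than that of all clusters. In all, 29 genes were higher and 26 lower, with a median of 0.002, and 11 genes were higher in every experiment and none lower in every experiment, where 15% and 11.4% of all clusters were.

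The balance of higher and lower genes differed between the high-dose arrays. In experiments 1 and 2 the median change was 0.07 in each, and in experiment 3 it was -0.16. Class H2A had medians of 0.09, 0.05 and -0.35 in experiments 1, 2 and 3, H3 had 0.08, 0.08 and -0.25, and H4 had 0.08, 0.06 and -0.18, while H2B had 0.06, 0.05 and 0.11. In experiment 3, H2AC25 changed by -1.35, H2AC4 by -0.99, H2AC12 by -0.86 and H2AC6 by -0.71, and in the same array H2BC7, H2BC17 and H2BC5 were 0.51, 0.43 and 0.39 higher. H2AC25 had 7.90, 7.51 and 6.34 with high-dose AA against 7.77, 7.64 and 7.69 in untreated cells, a separation in experiment 3 only. Replicate 3 held the lowest of the 15 values for 19 genes, a count not made over all clusters. Without that array, 48 genes were higher and 7 lower, with a median of 0.094. Without the whole of experiment 3, 43 were higher and 12 lower. These counts were not made over all clusters. In high-dose AA replicate 3 bright clusters were lower and dim ones higher in general. In experiment 3 the median change was -0.19 for the brightest 25% of the array and 0.23 for the dimmest 25%, and it was -0.21 for the 24 histone genes among the brightest 25%. The part of this shift in the histone values was not tested.

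**Figure D3:**
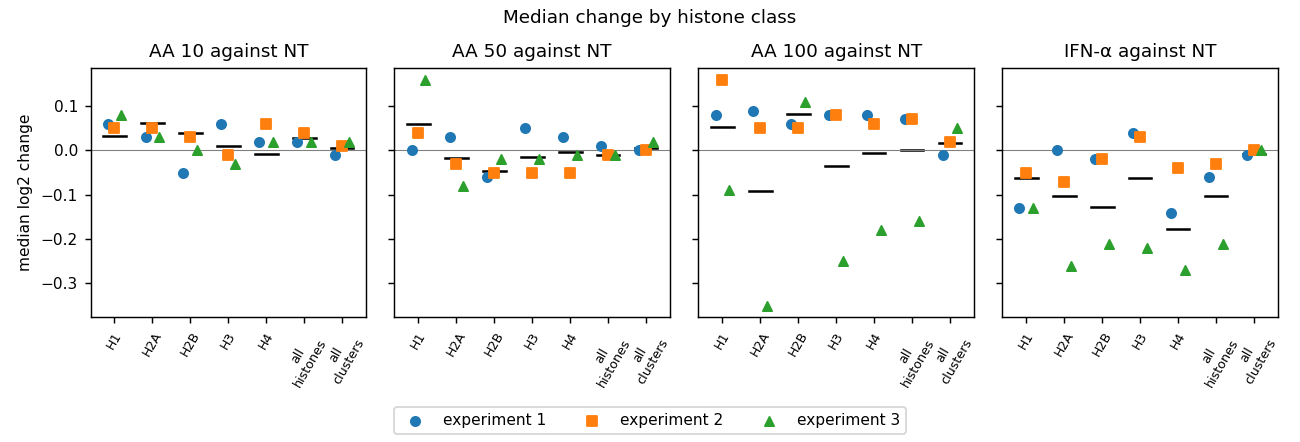
Median log2 change of each histone class, of all 55 histone genes and of all clusters against untreated cells, for each treatment; symbols are the median within each experiment and lines the median of the fitted differences over 3 experiments. Under IFN-α all class medians are at or below 0 except H3 in experiments 1 and 2, while high-dose AA splits between experiments 1 and 2 above 0 and experiment 3 below it, except in H2B.

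At the lower doses no histone gene passed the study's threshold, where 0.0311% of all clusters did at the intermediate and 0.0207% at the low dose. H1-1 was the only histone gene at an unadjusted p under 0.05 at the intermediate dose, with 8.28, 8.40 and 8.54, a difference of 0.27 (adjusted p = 1), where 1.47% of all clusters were lower and 0.875% higher. At the low dose none was, where 1.49% were lower and 1.05% higher, and H1-1 had 8.21, 8.28 and 8.41. Its values thus overlapped with those of untreated cells at the low dose only. The median over the 55 genes was -0.010 at the intermediate and 0.028 at the low dose. At the low dose 38 genes were higher and 17 lower, and at the intermediate dose 25 were higher and 30 lower. The same over all clusters is not given here. A slope on the AA dose over the 12 arrays without IFN-α was called for H1-1 alone, at 0.41 ± 0.10 (SE) per 100 µg/ml (adjusted p = 0.385), where 0.245% of all clusters had a called slope. Without high-dose AA replicate 3 this slope was 0.30 and not called, and it was called in 2 of the 15 settings that leave out an array or an experiment.

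High-dose AA was also compared directly with IFN-α. Of 55 genes, 43 were higher with high-dose AA and 12 lower, with a median difference of 0.102, where 43.2% of all clusters were lower and their median was 0.026. The median over the histone genes was 0.031 without IFN-α replicate 3. It was 0.061 or 0.18 when high-dose AA replicate 2 or 3, respectively, was left out. The genes H1-1 (0.58 ± 0.11 SE, adjusted p = 0.0316) and H3C2 (0.34 ± 0.07 SE, adjusted p = 0.0737) were called, where 0.65% of all clusters were. H1-1 with high-dose AA, at 8.43 to 8.86, lay above all 3 IFN-α values of 7.99, 8.06 and 8.02. At an unadjusted p under 0.05, 16 genes were higher with high-dose AA, or 29.1%, and none lower, where 7.95% of all clusters were higher and 4.15% lower. Among them were 7 H2B genes, 3 of H2A, 3 of H4, 2 of H1 and 1 of H3. H1-5 had a difference of 0.29 (adjusted p = 0.175), H2BC7 of 0.37 (adjusted p = 0.266), H2BC13 of 0.37 (adjusted p = 0.285) and H2BC9 of 0.35 (adjusted p = 0.306). That count was 22 without high-dose AA replicate 3, 8 without IFN-α replicate 3 and 8 without experiment 3. In each of the latter cases 1 gene was lower at that level. Shares over all clusters were not computed for these fits. H3C2 lost its call without IFN-α replicate 3 (0.29) and without high-dose AA replicate 1 (0.31), while H1-1 was called without each 1 of the 6 arrays and lost its call without experiment 1 or 2.

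The largest fitted difference of any histone gene in the 7 comparisons was one between experiments. Experiment 1 was compared with experiments 2 and 3 in a model that also holds the condition. The SE and p values of this comparison rest on the spread of arrays within experiments, with 1 experiment set against 2. They therefore do not measure variation between experiments. Of 55 genes, 39 were higher in experiment 1 and 16 lower, with a median of 0.087. The same count and median over all clusters are not given here, so this lean is not read as particular to the histone genes. The study's threshold was passed by 5 genes, or 9.09%, all higher in experiment 1, where 3.56% of all clusters passed it. At an unadjusted p under 0.05, 16 genes were higher and 2 lower, where 12.8% and 8.83% of all clusters were. At this level all clusters thus leaned the same way as the histone genes.

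H3C11, an H3 gene, was 0.80 ± 0.08 (SE) higher in experiment 1 (adjusted p = 4.72e-04). It ranged from 9.96 to 10.32 over the 5 arrays of experiment 1, from 9.38 to 9.66 in experiment 2 and from 8.88 to 9.41 in experiment 3, so that experiment 1 lay above the others, while experiments 2 and 3 overlapped. The arrays of experiment 1 also lay above all others for the H4 genes H4C13 (0.44, adjusted p = 0.00449) and H4C4 (0.36, adjusted p = 0.00278). H4C13 had 7.52 to 7.76 in experiment 1, 7.04 to 7.31 in experiment 2 and 6.92 to 7.35 in experiment 3, and H4C4 had 9.01 to 9.29, 8.64 to 8.91 and 8.59 to 8.99. H2BC12 was 0.33 higher (adjusted p = 0.022) and H3C12 0.24 higher (adjusted p = 0.0266). Of these, H2BC12 overlapped between experiments, with 10.15 to 10.51, 9.72 to 10.10 and 9.63 to 10.30, and in high-dose AA its experiment 3 value of 10.29 exceeded that of experiment 1, 10.28. H2BC9 and H2BC14 were lower in experiment 1 by 0.15 and 0.17 (adjusted p = 0.157 and adjusted p = 0.183). H3C12 was called in 2 and H2BC12 in 4 of the 15 settings that leave out 1 array, and H3C11, H4C4 and H4C13 in all 15. The count fell to 3 without untreated, IFN-α, intermediate-dose AA or high-dose AA replicate 1, untreated or low-dose AA replicate 2, or IFN-α replicate 3.

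**Figure D4:**
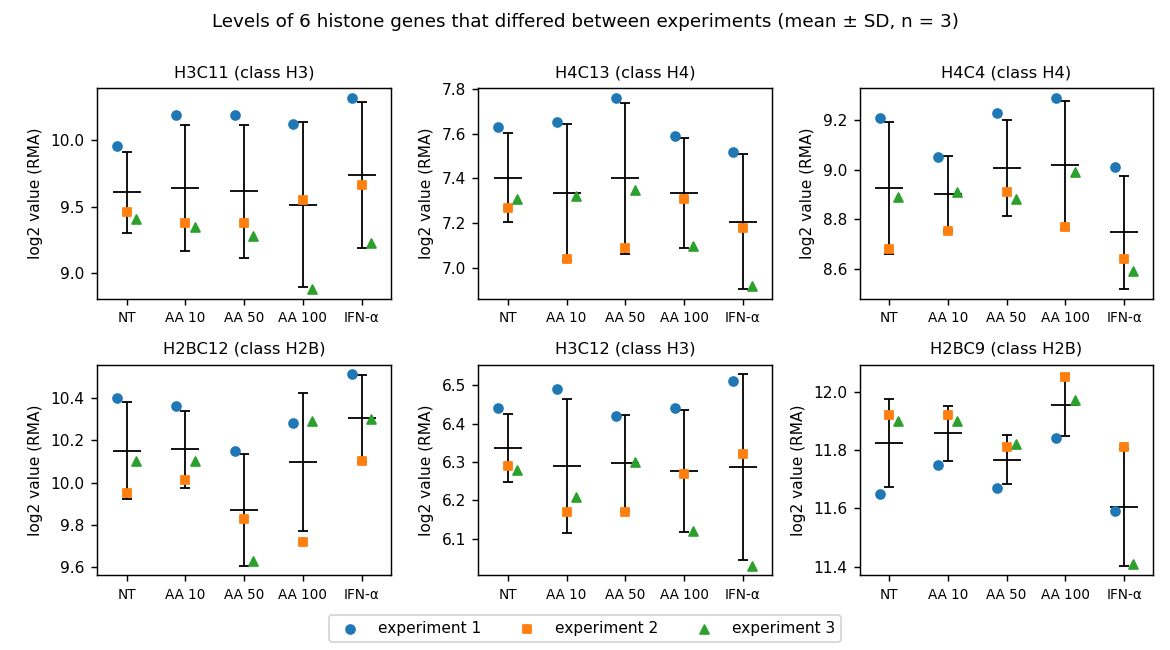
Log2 values (RMA) of 6 histone genes on each of the 15 arrays by condition. They are the 5 genes called between experiments and H2BC9, which was not called. Symbols are experiments, horizontal lines are means and bars SDs over 3 arrays. H3C11 in experiment 1 (9.96 to 10.32) lies above every array of experiments 2 and 3, and H2BC9 in experiment 1 lies below experiment 2 under each condition.

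The genes that act with histone mRNAs showed no called change under a treatment. Of 19 measured regulators of histone mRNA, 3 were at an unadjusted p under 0.05 with high-dose AA, all higher, where 7.34% of all clusters were higher and 3.62% lower. With IFN-α none of them was, where 0.868% of all clusters were higher and 0.522% lower. SLBP had 10.30, 10.01 and 10.22 with high-dose AA against 10.10, 9.86 and 9.88 (difference 0.23, adjusted p = 0.445), with overlap between the groups. ZNF473, which takes part in the processing of histone mRNA 3′ ends, was 0.20 higher and LSM1, which acts in the decay of mRNA, 0.23 higher (adjusted p = 0.445 for both). NPAT differed by 0.05 with high-dose AA (adjusted p = 0.879) and by -0.02 with IFN-α (adjusted p = 1). At the intermediate dose 1 of the 19, TUT7, was at an unadjusted p under 0.05, lower by 0.18 (adjusted p = 1). At that threshold 1.47% of all clusters were lower and 0.875% higher. At the low dose none passed it, where 1.49% of all clusters were lower and 1.05% higher. UPF1, a helicase that takes part in the decay of histone mRNA, was the 1 regulator called between experiments, at 0.33 higher in experiment 1 (adjusted p = 0.00666). In that comparison 3.56% of all clusters were called.

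Replacement histones are made outside S phase as well. The 13 measured stayed above an unadjusted p of 0.05 in all 4 comparisons with untreated cells. The log2 difference of H2AZ1 was 0.05 with high-dose AA and 0.02 with IFN-α. H2AX had 9.57, 9.58 and 9.77 with high-dose AA, 9.51, 9.53 and 9.52 in untreated cells and 9.34, 9.46 and 9.41 with IFN-α, without overlap among the 3 groups, and differed by 0.24 between high-dose AA and IFN-α (adjusted p = 0.31). Of 22 histone chaperones, 1, ATRX, was at an unadjusted p under 0.05 with high-dose AA and was lower. At that threshold 3.62% of all clusters were lower and 7.34% higher. ATRX was lower by 0.37 (adjusted p = 0.445), with 8.27, 7.77 and 7.37 against 8.19, 8.08 and 8.25. Its lowest value was again that of high-dose AA replicate 3. CHAF1A, which brings new H3 and H4 to replicated DNA, differed by -0.08 with high-dose AA (adjusted p = 0.74). None of the chaperones was at an unadjusted p under 0.05 with IFN-α, where 0.522% of all clusters were lower and 0.868% higher.

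Of 51 genes of S phase and DNA replication, 6 were higher with high-dose AA at an unadjusted p under 0.05 and none lower, where 7.34% of all clusters were higher and 3.62% lower. E2F8 had 9.59, 9.44 and 9.43 against 9.15, 9.23 and 9.26 (difference 0.27, adjusted p = 0.422) and CCNA2 had 10.90, 10.77 and 11.03 against 10.69, 10.58 and 10.65 (difference 0.26, adjusted p = 0.439), both without overlap. With IFN-α none was at an unadjusted p under 0.05 in either direction, the median was -0.032 and 36 of 51 were lower, or 70.6%, where the median over all clusters was -0.008 and 54.3% were lower. PCNA, the sliding clamp of DNA replication, differed by 0.10 with high-dose AA (adjusted p = 0.681) and by 0.04 with IFN-α (adjusted p = 1). The median of these S phase genes in experiment 3 was -0.04 with IFN-α and -0.15 with high-dose AA, beside -0.21 and -0.16 for the histone genes.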

How the data were processed

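Total RNA of MT-2 cells was measured on 15 arrays. The authors computed the deposited log2 values by RMA with xps 1.8.0 and quantile normalization, which forces arrays to a common distribution. No further normalization was applied and raw intensities were not analysed here. Of 28926 clusters, 19310 carry 1 symbol, 1752 several and 7864 none in the platform annotation, whose build is not given in the sources used here. The members and gene lists were chosen with earlier results of these data known. Differences came from limma 3.58.1 in R 4.3.3, in 1 model over all arrays (10 residual and 3.91 prior degrees of freedom), the slope from 12 arrays. The call threshold, from the study's methods, was a two-sided p under 0.001 without adjustment. At this threshold 28.9 calls are expected by chance over all clusters. The fit used here called 75 clusters with high-dose AA and 81 with IFN-α, in both cases fewer than the genes the study reports. The calls above are thus those of this fit and not of the study's own analysis. Adjusted p values are Benjamini-Hochberg values over all clusters. The SD and n behind a mean are those of 3 arrays, whose number limits the precision. The test was tried on simulated data.

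Genes were named if the study names them, if called in any of 7 comparisons, if among the 3 smallest p of a class against untreated cells, or if of class H1. From the other lists, up to 4 genes with the smallest p and a few fixed ones were named. Genes named for their change in experiment 3, H2AX, UPF1, H2BC14 and those without overlap were chosen after their values were seen. The replicate number stands for the experiment in the sample titles and pairs the arrays. After subtraction of condition means, 30 array pairs of 1 experiment correlated across clusters with a median of 0.281 (-0.194 to 0.536, 25 over 0.1), and 60 pairs of different experiments with -0.172. Replicate was tried as a fixed block and as a random block with statmod 1.5.0 (consensus correlation 0.157). Other alternatives were cyclic loess, a filter on the dimmest 25%, array weights, trended and robust variances, other thresholds, models of 2 groups alone and leaving out arrays and experiments. Promoters and motif matches use RefSeq sequences. Figures were drawn with matplotlib 3.10.9.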

Additional observations from a re-analysis of the deposited data

How the results depend on the processing

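The number of histone genes called did not change with the replicate block in any of the 6 comparisons it was fitted in (1 with high-dose AA, 0 at the other doses, 1 with IFN-α, 2 for high-dose AA against IFN-α, 1 for the slope), and a random block gave 3 for high-dose AA against IFN-α. With an adjusted p under 0.05 the counts were 0 for high-dose AA, 0 for IFN-α, 1 for high-dose AA against IFN-α, 0 for the slope and 9 between experiments. With array weights, whose estimate stopped short of its convergence tolerance in some fits, they were 2, 1, 14 (13 higher and 1 lower), 0 and 8. With cyclic loess, high-dose AA and the slope had 0. Models of the 2 groups alone gave 0 for high-dose AA, 0 for IFN-α and 0 for high-dose AA against IFN-α. Leaving out arrays or experiments gave 0 to 1 called with high-dose AA, 0 to 1 with IFN-α, 0 to 3 for high-dose AA against IFN-α, 0 to 1 for the slope and 3 to 6 between experiments. The median change ran from -0.031 to 0.001 at the intermediate dose, from 0.006 to 0.054 at the low dose and from 0.031 to 0.18 for high-dose AA against IFN-α. Under IFN-α it stayed between -0.151 and -0.044, and with high-dose AA between -0.05 and 0.094. Adding the clusters shared by several histone genes, chosen after seeing the data, gave -0.086 with IFN-α and -0.007 with high-dose AA. One value per gene changes nothing, as each gene has 1 cluster. Of 298 alternative values for single genes, 229 kept their side of the 0.001 threshold, 69 lost a call and 0 changed sign. The 298 also cover genes at an unadjusted p under 0.05 that were not called in the main fit. Those genes kept their side by staying uncalled, so 229 is not a count of kept calls. The cause of the lost calls was not tested. A number of 3 arrays per condition limits what can be called.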
